A study of Mus musculus with 12 samples.

Results

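Tumours of mice given paclitaxel alone were compared with tumours of mice given vehicle, gene by gene, over every gene with enough reads. The comparison is between 6 of the 12 RNA sequencing libraries of the study, 3 per group, chosen by their labelled treatment. All mice were BALB/c and carried tumours grown from 300000 injected 4T1 cells in mammary fat pad number 4. 4T1 is a mouse mammary carcinoma line that spreads to the lung, and the cells carried firefly luciferase. Paclitaxel was given at 5 mg/kg, 1 time a week, from day 14, and the tumours were taken on day 28. The remaining libraries came from mice given MBQ-167 (100 mg/kg, 5 times a week), an inhibitor of the GTPases Rac and Cdc42, or both drugs. They set paclitaxel beside itself in a second drug background. They also enter the filter on low counts, the scaling, the 12-library means and the estimate of spread behind each edgeR p-value. The genotype is labelled WT throughout, and the sources used here do not give the time between the last dose and collection. No label ties a library to a mouse, though each is called a biological replicate, so a p-value here measures the spread between libraries. The tumours came from 2 occasions of cell injection that are not tied to libraries, so occasion and treatment cannot be told apart.

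Paclitaxel binds tubulin and stabilises microtubules, which holds dividing cells in mitosis and can kill them. In animals it also lowers the numbers of short-lived blood cells, neutrophils among them. The readout here is RNA of whole tumours, which hold carcinoma cells, blood vessels, fibroblasts and immune cells. Fewer cells of a type and less RNA per cell cannot be told apart in such samples. GC content is the share of guanine and cytosine bases in a transcript. It differs between genes, and read counts of a library can depend on it.

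The 6 libraries held 12310300 to 17001562 counts, and 18252 genes passed the filter on low counts. A block of 3 features at a ribosomal RNA locus took 31.64% to 37.54% of the counts in vehicle and 17.11% to 32.08% in paclitaxel libraries (exact two-sided permutation p = 0.2, where 3 against 3 cannot go below 0.1). Paclitaxel 1 had the lowest share, and vehicle 3 the highest neutrophil marker level. Markers of the tumour epithelium were present in all 6 libraries, with a summed level of 958.6 to 2822 CPM in vehicle and 1092 to 1149 CPM in paclitaxel. CPM is a gene's count divided by the library size after TMM scaling. Markers of secretory mammary cells reached at most 0.2372 CPM in sum, with Csn1s1 at 0 in all 6 libraries, and those of lung epithelium at most 0.553 CPM.

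With paclitaxel, 578 genes rose and 455 fell at a Benjamini-Hochberg adjusted p under 0.05 in edgeR's quasi-likelihood test. These are 3.17% and 2.49% of the genes tested, 5.66% together. The groups did not overlap for 577 of the genes that rose and 450 of those that fell, against 25.4% of all tested genes in either direction. Rises were larger than falls: 255 genes rose by more than 1 on the log2 scale and 84 fell by more than 1, and the medians of the genes past the test were 0.90 and -0.65. Among the rises, 395 of the 578 genes were in the lowest quintile of genes by GC content of the transcript, and 25 were genes of the interferon response. Among the falls were 13 immediate early genes, 11 neutrophil markers and 9 glycolysis genes. Of the genes past the test, 140 that rose and 44 that fell also passed with the same sign in each of the 6 fits that left out a library, and 50 and 32 passed in none of these. The choice of libraries moved the counts widely: without paclitaxel 2, 169 genes rose and 61 fell, without vehicle 1, 207 and 159, and without paclitaxel 1, 262 and 144. Without paclitaxel 3, 414 genes rose and 293 fell. A fit of the 6 libraries only, without the other 2 groups, gave 170 genes higher and 81 lower.

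The direction of change followed the GC content of the transcript. The median GC content was 50.2% over the genes tested, 41.98% over the genes that rose and 54.48% over those that fell. Across 18144 genes with a GC value, the log2 fold change had a Spearman correlation of -0.40 with GC content. Genes are not independent replicates, so this is a description without a p. When genes were cut into 10 equal groups (deciles) by GC content, the median log2 fold change went from 0.50 in the lowest decile (26.32% to 41.97% GC) to -0.18 in the highest (58.04% to 86.21%). In the lowest decile, 285 of 1815 genes (15.7%) rose and 1 fell, and 87.2% of its genes had a positive change. In the highest decile, 3 genes rose and 84 (4.63%) fell. The gradient was steep among AT-rich genes and flat among GC-rich ones, where the medians of the 3 highest deciles were -0.15, -0.16 and -0.18.

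**Figure D1:**
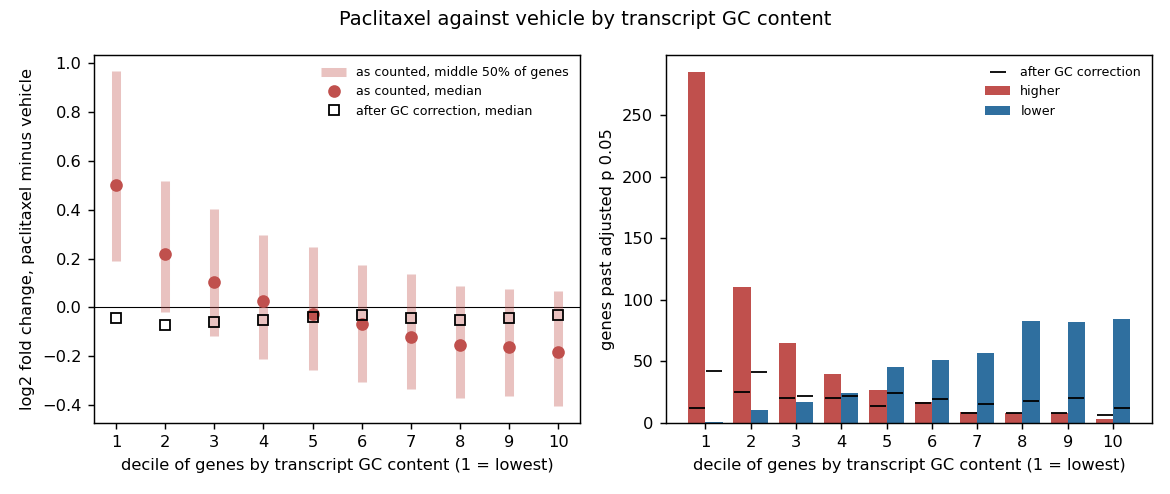
Left: log2 fold change of paclitaxel minus vehicle in each decile of genes by transcript GC content, with the median (point) and middle 50% of genes (bar), and the median after correction for GC content (square). Right: genes that rose (red) or fell (blue) in each decile, with dashes for the counts after correction. The median falls from 0.50 to -0.18 as counted, and lies between -0.07 and -0.03 in every decile after correction.

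The genes with the smallest p-values at both ends of the scale show what the GC classes look like in sequence. Each line below is the first stretch of 120 bases of coding sequence whose GC content is nearest to that of the gene's transcripts, from GENCODE vM21 on GRCm38, with G and C in capitals. The first 3 genes are in the lowest quintile by GC content and rose, and the last 3 are in the highest quintile and fell.
Fam208a: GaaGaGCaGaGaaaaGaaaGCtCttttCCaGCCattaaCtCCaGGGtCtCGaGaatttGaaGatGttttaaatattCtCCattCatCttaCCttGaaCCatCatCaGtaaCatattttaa
Zfp518a: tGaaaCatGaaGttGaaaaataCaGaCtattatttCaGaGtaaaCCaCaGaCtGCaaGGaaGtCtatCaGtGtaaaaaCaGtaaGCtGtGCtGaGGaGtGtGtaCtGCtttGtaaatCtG
Fubp1: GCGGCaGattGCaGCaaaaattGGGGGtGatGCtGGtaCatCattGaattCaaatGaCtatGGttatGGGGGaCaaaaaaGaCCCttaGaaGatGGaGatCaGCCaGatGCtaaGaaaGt
Fos: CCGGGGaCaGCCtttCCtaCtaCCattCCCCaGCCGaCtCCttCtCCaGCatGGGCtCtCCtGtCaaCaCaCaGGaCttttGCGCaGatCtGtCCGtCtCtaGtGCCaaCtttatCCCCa
Fosb: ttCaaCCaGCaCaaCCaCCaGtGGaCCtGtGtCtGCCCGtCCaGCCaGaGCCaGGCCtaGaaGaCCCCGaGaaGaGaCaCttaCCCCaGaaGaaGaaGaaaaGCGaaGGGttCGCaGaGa
Klf2: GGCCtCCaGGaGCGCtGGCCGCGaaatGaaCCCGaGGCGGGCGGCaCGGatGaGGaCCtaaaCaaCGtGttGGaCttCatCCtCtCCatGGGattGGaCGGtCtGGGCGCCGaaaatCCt
Transcript GC content was 34.9% for Fam208a, 36.74% for Zfp518a and 43.4% for Fubp1, against 55.94% for Fos, 55.98% for Fosb and 61.56% for Klf2. These 6 genes were chosen after their values were seen.

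Fam208a (ENSMUSG00000040651, chromosome 14, 27428834 to 27483555), which encodes a subunit of the HUSH silencing complex, had 40.28, 50.92 and 41.46 CPM in vehicle libraries 1 to 3. It had 98.23, 100.8 and 80.5 CPM in paclitaxel libraries 1 to 3, so that every paclitaxel library lay above every vehicle library. Its log2 fold change was 1.08 ± 0.13 (SE, edgeR adjusted p = 0.00198). Zfp518a (ENSMUSG00000049164, chromosome 19, 40894705 to 40917947), a zinc finger gene, had 11.26, 12.33 and 11.34 CPM in vehicle and 23.71, 24.1 and 23.31 CPM in paclitaxel libraries, with almost no spread within either group. Its log2 fold change was 1.03 ± 0.13 (edgeR adjusted p = 0.00198). Fubp1 (ENSMUSG00000028034, chromosome 3, 152210422 to 152236826), which encodes a single-strand DNA and RNA binding protein, had 86.08, 92.27 and 110.3 CPM in vehicle and 181.1, 209.4 and 209 CPM in paclitaxel libraries. The 3 genes rose by similar amounts as counted, but they parted after the GC correction described below: Fubp1 stayed past the test at 0.78 ± 0.12 (edgeR adjusted p = 0.0179), while Fam208a came to 0.14 ± 0.15 (0.694) and Zfp518a to 0.26 ± 0.16 (0.416).

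The GC dependence was a property of single libraries, and it separated the groups. In each library, the deviation of log2 CPM from the 12-library mean was correlated with GC content across genes. In order of replicate number, Spearman's rho was 0.2955, 0.2643 and 0.1338 for vehicle. For paclitaxel it was -0.3304, -0.2866 and -0.1541. All vehicle values were positive and all paclitaxel values negative. The group difference was -0.49 (0.23 ± 0.09 against -0.26 ± 0.09, SD, n = 3), with an exact two-sided permutation p of 0.1, the smallest that 3 against 3 can give. The MBQ-167 libraries had 0.09 ± 0.08 and the combination libraries -0.15 ± 0.09, between the other 2 groups in both cases. Each of the 9 pairs of a paclitaxel and a vehicle library gave a negative correlation of fold change with GC content, from -0.37 to -0.17, while the 12 pairs within a group ranged from -0.14 to 0.14. Vehicle 3 and paclitaxel 3 were the mildest library of each group, and their pair gave the weakest correlation.

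**Figure D2:**
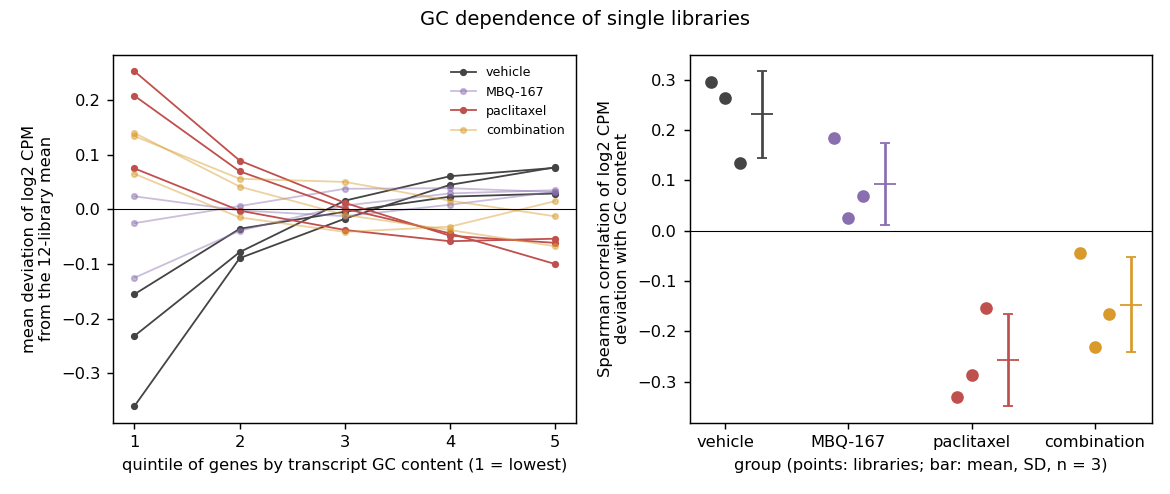
Left: mean deviation of log2 CPM from the 12-library mean in each quintile of genes by GC content, 1 line per library. Right: Spearman correlation of that deviation with GC content, 1 point per library, with mean and SD of 3 libraries. In the lowest quintile the 3 vehicle libraries lie at -0.36, -0.23 and -0.16 and the 3 paclitaxel libraries at 0.21, 0.25 and 0.07.

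The relation was not confined to one stretch of the transcript. Over 13240 protein-coding genes with both parts annotated, the correlation of the fold change was -0.32 with the GC content of the coding sequence and -0.31 with that of the 3′ UTR. Each kept a part when the other was held constant (-0.17 and -0.15). Transcript length had a weaker relation (0.11, and 0.08 given GC content), and the GC relation given length was -0.39. The fold change also correlated with mean log2 CPM, at -0.23. In the lowest GC decile the median log2 CPM was 2.217, and 55.3% of genes were protein-coding. The other deciles had 3.342 to 3.716 and 72.3% to 86.5%. The GC relation grew with expression, from -0.35 in the lowest tercile of genes by mean log2 CPM to -0.42 and -0.48 in the middle and highest terciles. The GC content of the promoter had little of it. Over 11394 genes with a RefSeq promoter (GRCm38.p6, from 250 bases before to 50 after the gene start), the fold change correlated at -0.09 with promoter GC and at -0.39 with transcript GC. With each held constant in turn, these became -0.04 and -0.39.

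Other features of the libraries moved together with the GC relation. Transcript length correlated with the library deviation at -0.10 ± 0.06 in vehicle and 0.03 ± 0.03 in paclitaxel libraries (SD, n = 3, exact permutation p = 0.1). Leaving the ribosomal RNA features out of the table gave 582 genes higher and 440 lower, of which 573 and 438 were among those of the full table, with a GC correlation of -0.40. The part of length and of ribosomal RNA in the GC relation was not tested further. With the library's own GC slope as a covariate, no gene passed edgeR's test (1466 genes at an unadjusted p under 0.05). That slope does not overlap between vehicle and paclitaxel libraries. Without vehicle 1 and paclitaxel 1 together, the steepest library of each group, 56 genes rose and 50 fell, and the GC correlation was -0.32.

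A correction was also made: a smooth curve of log2 CPM deviation on GC content was taken off each library before the same test. It left 140 genes higher (0.767%) and 235 lower (1.29%), of which 137 and 153 had passed in the same direction as counted. The share of rises among the genes past the test went from 56% to 37.3%. In the lowest quintile of GC content, the count of genes that rose fell from 395 to 37 and the count of genes that fell went from 11 to 83. In the highest quintile, the counts went from 11 to 14 and from 166 to 32. The correction removes any real change that runs along GC content together with any technical one, and these cannot be told apart. Among genes that passed as counted, in all 6 fits that left out a library and after the correction, 67 were higher and 44 lower.

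Some classes of RNA with AT-rich transcripts followed the same line. Of 679 TEC features, which are loci marked in the annotation as to be experimentally tested, 54 (7.95%) were higher and 2 lower, with a median log2 fold change of 0.62 and a median GC content of 42.08%. Their summed share of counts outside the ribosomal RNA locus was 0.1999%, 0.2651% and 0.2928% in vehicle and 0.387%, 0.4576% and 0.3295% in paclitaxel libraries, without overlap. Sense intronic transcripts behaved alike, with 7 of 118 higher, none lower and a median of 0.62. After correction for GC content, the TEC median was 0.22 with 5 past the test, and that of sense intronic transcripts 0.23 with none (edgeR). Long intergenic noncoding RNAs, with a median GC content of 47.53%, had a median change of 0.27 as counted and 0.14 after correction. Processed transcripts, with 48.93%, had 0.18 and 0.13. Processed pseudogenes, which are intronless copies of spliced RNAs, leaned the other way at a median GC content of 49.69%. Of 1253, 6 (0.479%) were higher and 32 (2.55%) lower, with a median of -0.19 as counted and -0.25 after correction. Reads of a pseudogene and its parent gene can be mixed up in counting. Among 13730 protein-coding genes, 436 were higher and 395 lower.

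Genes of the interferon response rose in the largest share of members among the 41 gene lists. Interferons, signal proteins of the immune response, induce these genes, and the products sense viral nucleic acid, block virus growth or present antigen. Of 35 listed and tested members, 25 rose and none fell, against 3.17% of all genes tested that rose, and the median log2 fold change was 0.94 against -0.00180 for all genes. The mean log2 CPM of the list was 3.95, 3.79 and 3.48 in vehicle and 4.51, 5.02 and 4.84 in paclitaxel libraries. The median GC content of the list was 48.49%, close to that of all genes, and the correction left a median of 0.91 with 15 members higher. Markers of T and NK cells, which make interferon, had a median of 0.82 with 1 of 18 higher. The summed level of 8 T cell markers was 5.605 to 13.36 CPM in vehicle and 9.51 to 31.76 CPM in paclitaxel libraries, and that of 8 NK cell markers 4.997 to 22.3 and 16.97 to 24.17 CPM. Their part in the rise of the interferon genes was not tested. Paclitaxel 2, which had the highest list level, also had the highest summed levels of T cell (31.76 CPM), B cell (35.24 CPM) and adipocyte markers (85.8 CPM), where the other 5 libraries reached at most 13.36, 7.67 and 39.3 CPM. Their part was not tested. Without paclitaxel 2, 7 members passed, and 1 passed when the fit held a term for neutrophil markers, with medians of 0.90 and 0.77. The neutrophil marker level does not overlap between vehicle and paclitaxel libraries, so the fit with that term cannot separate it from the drug.

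Zbp1 (ENSMUSG00000027514, chromosome 2, 173206612 to 173218923), a sensor of Z-form nucleic acid that can start cell death, had 13.76, 12.33 and 12.69 CPM in vehicle and 33.06, 40.84 and 32.4 CPM in paclitaxel libraries. The groups were far apart, and the log2 fold change was 1.45 ± 0.16 as counted (edgeR adjusted p = 0.00198) and 1.499 ± 0.17 after correction (0.00204). Parp14 (0.93 ± 0.12) and Ifi44 (1.41 ± 0.20), both induced by interferon, also rose in all 6 fits that left out a library. Irf7, the transcription factor that amplifies type I interferon, rose by 0.81 ± 0.17 although its GC content of 56.35% lies in the highest quintile, where 11 genes rose. The T cell attracting chemokine gene Cxcl10 rose from 1.148 to 3.084 CPM in vehicle to 6.507 to 9.633 CPM in paclitaxel libraries, without overlap. Ido1, which encodes an enzyme that breaks down tryptophan and is induced by interferon gamma, had at most 0.6802 CPM in vehicle and 1.446, 4.819 and 2.025 CPM in paclitaxel libraries.

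Interferon-induced GTPases act against intracellular parasites. Of those given here, Irgm1, Igtp and Gbp7 were picked after their values were seen. Irgm1 (ENSMUSG00000046879, chromosome 11, 48861968 to 48871683) had 51.09, 47.6 and 35.25 CPM in vehicle and 97.6, 150.3 and 101.1 CPM in paclitaxel libraries (1.38 ± 0.21, edgeR adjusted p = 0.00442). Igtp (1.56 ± 0.30), Gbp7 (1.35 ± 0.20), Tgtp1 (2.16 ± 0.36) and Tgtp2 (2.18 ± 0.32) also rose, and Igtp lost its call without paclitaxel 2. Near-identical copies exist in this family, among them Tgtp1 and Tgtp2, so reads may be shared between members. Antigen presentation by MHC class I, in part driven by interferon, had 3 of 14 members higher and none lower, against 3.17% of all genes tested that rose. The list had a median of 0.48. Its members past the test were Nlrc5, the transactivator of the class I genes (1.06 ± 0.21), H2-T22, a nonclassical class I gene (0.75 ± 0.17), and Erap1, which trims peptides (0.56 ± 0.14). Of these, Erap1 with a GC content of 42.87% lost its call after correction (edgeR adjusted p = 0.458). Without paclitaxel 2 none of the 14 passed.

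The promoters of the interferon genes were searched because the members moved together. The motif was GAAA, any 2 bases and GAAA again, the core of the interferon-stimulated response element, on both strands of the RefSeq promoters. It was in the promoters of 15 of 25 matched interferon genes (60%), against 4% of 26742 genes, 9.97% of the matched genes that rose and 2.14% of those that fell. Among genes higher after the GC correction the share was 17.9%. A match is a description of letters and not evidence that a factor binds. The 3 promoters shown are from the genes above, with build GRCm38.p6 and the motif in capitals, read 5′ to 3′ on the strand of the gene.
Irgm1, chr11:48871371-48871670, strand -: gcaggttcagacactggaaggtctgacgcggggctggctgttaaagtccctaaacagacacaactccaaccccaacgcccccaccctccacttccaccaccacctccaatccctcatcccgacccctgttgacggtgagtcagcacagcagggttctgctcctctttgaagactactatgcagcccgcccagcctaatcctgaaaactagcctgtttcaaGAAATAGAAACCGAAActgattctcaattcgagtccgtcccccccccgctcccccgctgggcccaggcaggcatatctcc
Gbp7, chr3:142530086-142530385, strand +: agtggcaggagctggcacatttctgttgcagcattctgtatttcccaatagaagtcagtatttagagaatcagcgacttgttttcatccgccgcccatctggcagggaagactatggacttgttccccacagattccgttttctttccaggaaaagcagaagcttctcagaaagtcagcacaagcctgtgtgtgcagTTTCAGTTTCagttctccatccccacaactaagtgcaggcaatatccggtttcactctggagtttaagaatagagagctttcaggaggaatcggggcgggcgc
Igtp, chr11:58199306-58199605, strand +: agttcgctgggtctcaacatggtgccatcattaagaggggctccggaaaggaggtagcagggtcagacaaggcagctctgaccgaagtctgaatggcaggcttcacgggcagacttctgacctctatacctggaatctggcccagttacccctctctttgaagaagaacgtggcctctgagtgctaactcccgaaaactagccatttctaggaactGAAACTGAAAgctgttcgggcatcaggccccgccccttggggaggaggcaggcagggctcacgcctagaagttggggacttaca
The match nearest to the gene start began 24 bases before it in Irgm1, 53 in Gbp7 and 34 in Igtp. Irgm1 holds 2 overlapping matches. In Gbp7 the motif lies on the opposite strand. Promoter GC content was 57.3%, 48.3% and 55.3%.

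**Figure D3:**
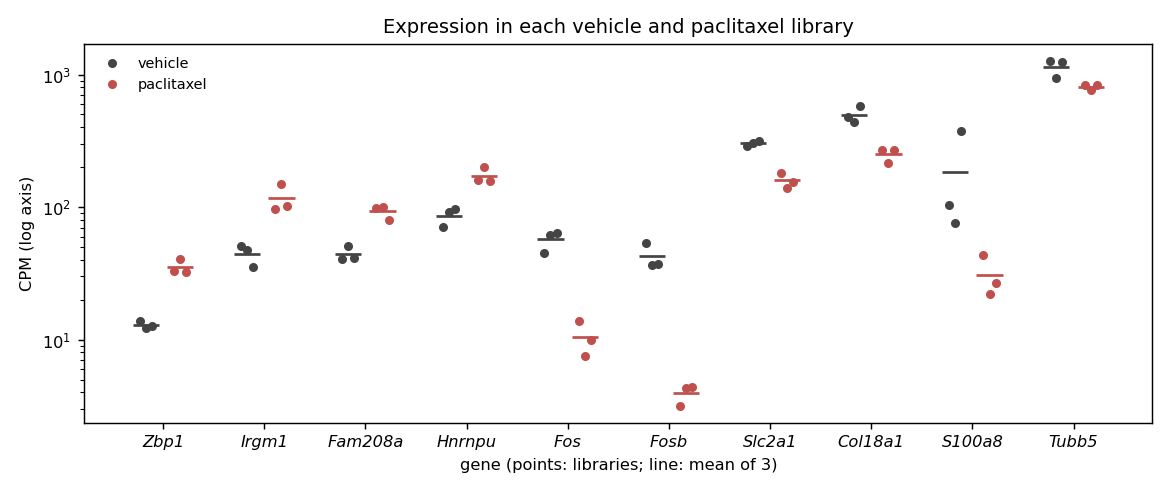
CPM on a log axis of 10 genes in the 3 vehicle (grey) and 3 paclitaxel (red) libraries, with the mean of each group as a line. For each of the 10 genes the groups do not overlap, and S100a8 shows vehicle 3 (373.6 CPM) far above the other vehicle libraries.

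Immediate early genes fell. They are transcribed within minutes of a growth or stress signal and include the subunits of the transcription factor AP-1. Of 21 listed members 13 fell and none rose, against 2.49% of all genes tested that fell, with a median of -0.84. After the GC correction 10 were lower, with a median of -0.74, and from 9 to 12 passed in the fits that left out a library. Fos (ENSMUSG00000021250, chromosome 12, 85473890 to 85477273) had 45.27, 61.83 and 64.08 CPM in vehicle and 13.74, 7.505 and 9.939 CPM in paclitaxel libraries, a log2 fold change of -2.44 ± 0.23 (edgeR adjusted p = 0.000594). Fosb (ENSMUSG00000003545, chromosome 7, 19302696 to 19310051) had 53.74, 36.77 and 37.48 CPM in vehicle and 3.181, 4.345 and 4.418 CPM in paclitaxel libraries (-3.43 ± 0.41, edgeR adjusted p = 0.00198). For both genes every paclitaxel library lay far below every vehicle library. Jund, another AP-1 subunit gene, fell by 1.41 ± 0.20 on the log2 scale, and Gm11175, an antisense locus that lies within its coordinates, fell by 1.29 ± 0.20. Whether counting used strand is not given in the sources used here, so reads of the pair may be shared. Atf3, a stress-induced relative of AP-1 (-1.71 ± 0.22), Dusp1, a phosphatase that ends MAP kinase signals (-1.56 ± 0.16), and Klf2, a transcription factor (-1.37 ± 0.17), fell as well. Fos, Fosb, Jund, Atf3, Dusp1 and Klf2 passed in all 6 fits that left out a library and after the correction.

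Because several of these genes are known targets of cyclic AMP signals, their promoters were searched for the palindrome TGACGTCA, the cyclic AMP response element. It was in 3 of 17 matched immediate early genes (17.6%), against 2.05% of all genes and 5.2% of the genes that fell. The interferon motif was in 1 of the 17. Of the 2 other motifs searched, the gamma-activated site TTCNNNGAA was in 5 of the 25 interferon and 1 of the 17 immediate early genes (9.6% of all genes), and the AP-1 site TGACTCA in 7 of the 25 and none of the 17 (5.94%). The 2 promoters shown are those whose gene passed in all 6 fits that left out a library and after the correction, with the motif in capitals.
Dusp1, chr17:26508423-26508722, strand -: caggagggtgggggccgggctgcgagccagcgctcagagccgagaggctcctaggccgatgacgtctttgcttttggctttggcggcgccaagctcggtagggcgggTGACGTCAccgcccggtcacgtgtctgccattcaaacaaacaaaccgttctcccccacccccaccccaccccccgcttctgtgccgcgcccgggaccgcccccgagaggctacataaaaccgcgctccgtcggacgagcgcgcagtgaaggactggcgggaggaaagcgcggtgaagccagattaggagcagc
Ppp1r15a, chr7:45526219-45526518, strand -: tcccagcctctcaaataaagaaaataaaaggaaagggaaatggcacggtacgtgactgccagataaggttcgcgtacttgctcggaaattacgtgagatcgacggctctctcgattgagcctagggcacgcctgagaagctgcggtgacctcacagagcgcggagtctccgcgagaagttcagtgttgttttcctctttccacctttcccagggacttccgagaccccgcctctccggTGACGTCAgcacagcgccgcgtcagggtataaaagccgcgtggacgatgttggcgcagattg
The match began 143 bases before the gene start in Dusp1 and 12 before it in Ppp1r15a, which encodes a subunit of a phosphatase of the stress response. Their promoter GC content was 67% and 55.3%.

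Genes induced by glucocorticoids fell in a related pattern. Of 12 genes 6 were lower and none higher, against 2.49% of all genes tested that fell. Their median was -0.96 (-0.93 after correction, 4 lower). Dusp1 belongs to both lists. Fkbp5 (ENSMUSG00000024222, chromosome 17, 28399094 to 28517527), a chaperone of the glucocorticoid receptor that the hormone itself induces, had 203.5, 197.9 and 264 CPM in vehicle and 120.8, 101.3 and 100.8 CPM in paclitaxel libraries (-1.04 ± 0.15, edgeR adjusted p = 0.00392). Every vehicle library lay above every paclitaxel library. Per1, a clock gene that glucocorticoids also induce, had 61.14, 49.02 and 84.75 CPM in vehicle and 29.98, 33.42 and 24.91 CPM in paclitaxel libraries (-1.14 ± 0.21, edgeR adjusted p = 0.00957). Of 17 clock genes 4 fell and none rose (median -0.37), with 3 lower after correction, among them the repressors Nfil3 (-0.79 ± 0.14) and Cry1 (-0.92 ± 0.19). The hour of collection is not given in the sources used here.

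Neutrophil genes fell. Neutrophils are short-lived white cells, and 4T1 tumours are known for the large numbers that they draw. Of 18 listed markers 11 fell and none rose, against 2.49% of all genes tested that fell. Their median log2 fold change was -2.59 (-2.69 after correction, 10 lower). The mean log2 CPM of the list was 4.14, 3.91 and 5.78 in vehicle and 3.19, 2.52 and 2.50 in paclitaxel libraries, and vehicle 3 stood above the rest. S100a8 (ENSMUSG00000056054, chromosome 3, 90668978 to 90670035), a calcium-binding alarmin, had 103.1, 76.38 and 373.6 CPM in vehicle and 43.62, 22.2 and 26.93 CPM in paclitaxel libraries (-2.57 ± 0.48, edgeR adjusted p = 0.0107). Cd177, a surface marker of neutrophils, had 8.843, 5.377 and 60.91 CPM in vehicle and 1.783, 0.79 and 0.859 CPM in paclitaxel libraries (-4.40 ± 0.82, edgeR adjusted p = 0.0107). The granule genes Ngp (-4.15 ± 0.87), Ltf (-3.33 ± 0.68) and Camp (-3.06 ± 0.63) and the chemokine receptor Cxcr2 (-2.80 ± 0.52) fell. Size and call leaned on single libraries: without vehicle 3 the list median was -1.34 with 9 lower, and without paclitaxel 2 none passed in edgeR while the median was -2.26. In that fit Cd177 had a change of the same sign that missed the test. With all 12 libraries, limma voom called 6 members of the list, where edgeR called 11.

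Of 6 tested red cell markers 3 fell, with a median of -2.38 (-2.25 after correction, 1 lower) and a summed level of 258.2 to 265.4 CPM in vehicle and 14.54 to 106.6 CPM in paclitaxel libraries. Hbb-bs, a beta globin gene, had 236.6, 220 and 203.3 CPM in vehicle and 81.07, 7.426 and 21.04 CPM in paclitaxel libraries (-2.57 ± 0.62, edgeR adjusted p = 0.0296), and the call was lost without vehicle 1, paclitaxel 2 or paclitaxel 3. Globin copies share reads. Against 2.49% of all genes tested that fell, 1 of 14 macrophage markers did so (median -0.33, none after correction in edgeR). None of 11 endothelial or 12 fibroblast markers passed edgeR's test, with medians of -0.07 and -0.24. Of the keratin and adhesion genes of the carcinoma, 1 of 11 fell: Krt8 had 533.6, 371.2 and 694.4 CPM in vehicle and 324.9, 295.1 and 299.8 CPM in paclitaxel libraries (-0.80 ± 0.18, edgeR adjusted p = 0.0236). The Krt8 call was lost after correction (-0.68 ± 0.19, edgeR adjusted p = 0.0763) and in 5 of the 6 fits that left out a library, all but that without vehicle 2. Krt18, its partner, was at -0.76 ± 0.23 (0.0683). Among the largest rises, Klrd1, which encodes a receptor of NK cells, went from at most 0.3953 CPM to 1.446, 2.607 and 1.779 CPM (2.93 ± 0.61, edgeR adjusted p = 0.016), and missed the test after correction (0.0576).

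Glycolysis, the breakdown of glucose to pyruvate, moved down as a group. Of 20 genes 9 fell, against 2.49% of all genes tested. None rose and all 20 had a negative change, with a median of -0.47. For genes of the same GC content the value was -0.15, which is the median over members of the median change in each member's GC decile. After correction the median was -0.41 with 4 lower. Slc2a1 (ENSMUSG00000028645, chromosome 4, 119108711 to 119137983), the glucose transporter GLUT1, had 289.8, 304.3 and 316 CPM in vehicle and 180.7, 140.3 and 155.6 CPM in paclitaxel libraries (-0.93 ± 0.15, edgeR adjusted p = 0.00487). Pfkl, a phosphofructokinase subunit, had 346.8, 322.4 and 298 CPM in vehicle and 193.1, 186.9 and 193.4 CPM in paclitaxel libraries (-0.75 ± 0.13, edgeR adjusted p = 0.00682). Both genes were clear of overlap, passed in all 6 fits that left out a library and stayed lower after correction. Aldoa, an aldolase, fell by 0.69 ± 0.13. Slc2a3, the transporter GLUT3, is not in this list and fell by 1.78 ± 0.28. It had 12.92, 18.26 and 32.08 CPM in vehicle and 6.266, 6.636 and 5.522 CPM in paclitaxel libraries. Without paclitaxel 2, 2 of the 20 passed, and with the neutrophil level as a covariate none passed in edgeR, with medians of -0.36 and -0.62. The neutrophil level does not overlap between vehicle and paclitaxel libraries, so the covariate fit cannot separate it from the drug. Neutrophils themselves depend on glycolysis, and their part here was not tested.

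Mitochondrial genes of the nucleus leaned down less, where 2.49% of all genes tested fell. Of 26 genes of the tricarboxylic acid cycle and pyruvate dehydrogenase 4 fell (2 after correction), among them Cs, citrate synthase, from 175.8, 162.5 and 145.7 CPM to 98.18, 115.8 and 123.7 CPM (-0.52 ± 0.11, edgeR adjusted p = 0.0196). Of 38 nuclear genes of the respiratory chain 3 fell: Cox4i1 (-0.67 ± 0.15), Cox6b1 (-0.69 ± 0.15) and Atp5b (-0.59 ± 0.14), of which Cox4i1 and Cox6b1 lost the call after correction (edgeR adjusted p = 0.0642 and 0.0562). The 13 genes encoded in mitochondrial DNA, whose transcripts are AT-rich (median GC 37.12%), gave the opposite sign as counted. None passed edgeR's test, and their median was 0.30 as counted, 0.50 for genes of the same GC content and -0.41 after correction. The gene mt-Nd5, for a subunit of complex I, had 502.7, 792.7 and 830.4 CPM in vehicle and 905.3, 1058 and 1000 CPM in paclitaxel libraries, which do not overlap, and its estimate changed from 0.48 ± 0.17 to -0.23 ± 0.13.

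Hypoxia targets, stress genes and matrix genes added falls, where 2.49% of all genes tested fell. The 18 hypoxia targets had a median of -0.20, with 6 positive changes, against -0.07 for genes of the same GC content. Heat shock and matrix medians were -0.31 and -0.37, against -0.07 and -0.12. Of 18 hypoxia targets 5 fell (2 after correction), among them Ddit4, an inhibitor of mTORC1 (159.3, 181.5 and 254.9 CPM in vehicle, 89.6, 103.8 and 101 CPM in paclitaxel), P4ha1, a collagen prolyl hydroxylase (-0.87 ± 0.18), and Adm, the peptide adrenomedullin (-1.004 ± 0.26), whose call was lost after correction (edgeR adjusted p = 0.0846). Of 13 heat shock chaperones 5 fell (1 after correction), with Hspa1b, an inducible Hsp70, at 66.36, 92.9 and 78.47 CPM in vehicle and 43.47, 20.46 and 15.34 CPM in paclitaxel (-1.58 ± 0.34, edgeR adjusted p = 0.0177). Hspa1b has a near-identical neighbour copy, so its reads are uncertain. Ddit3, the stress factor CHOP, fell by 0.97 ± 0.17. Of 25 collagen and matrix genes 5 fell (2 after correction). Col18a1 (ENSMUSG00000001435, chromosome 10, 77052178 to 77166548), whose product gives rise to endostatin, had 474.8, 436.5 and 576.1 CPM in vehicle and 272, 215.2 and 269.3 CPM in paclitaxel libraries (-0.98 ± 0.13, edgeR adjusted p = 0.00299), and Col6a1 had -1.02 ± 0.18. Of 30 genes of actin and the Rac pathway 8 fell and none rose (median -0.35, and -0.36 with 4 lower after correction), among them Arpc1b, a subunit of the Arp2/3 complex (-0.57 ± 0.11), and Pfn1, profilin (-0.43 ± 0.10), neither of which passed after correction (edgeR adjusted p = 0.0586 and 0.144). Without paclitaxel 2 the counts were 1 for hypoxia, 0 for heat shock, 2 for matrix and 1 for actin genes.

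The drug's own target showed small falls. Tubulins form the microtubules that paclitaxel binds. Of 15 tested members 3 fell and none rose, against 2.49% of all genes tested that fell. Their median was -0.32, against -0.15 for genes of the same GC content. Tubb5 (ENSMUSG00000001525, chromosome 17, 35833921 to 35838306), a broadly expressed beta tubulin, had 1262, 938.7 and 1246 CPM in vehicle and 833.8, 763.2 and 837.2 CPM in paclitaxel libraries (-0.50 ± 0.13, edgeR adjusted p = 0.0364). Tubb2a fell by 0.74 ± 0.16 and Tuba1c by 0.54 ± 0.13. Tubb4b (-0.42 ± 0.16, edgeR adjusted p = 0.134), Tubb6 (-0.43 ± 0.16, 0.117), Tuba1a (-0.48 ± 0.15, 0.0753) and Tubb2b (-0.84 ± 0.42, 0.259) did not pass. After correction no tubulin passed in edgeR (smallest adjusted p of the 3 that had passed, 0.0599), nor without vehicle 1, paclitaxel 1 or paclitaxel 2. Tubb5 itself passed in 1 of the 6 fits that left out a library. Tubulin genes have close copies and pseudogenes that can share reads. Microtubule-associated proteins had none of 25 past edgeR's test, with Map4 at -0.26 ± 0.10 (adjusted p = 0.155) and Stmn1, which destabilises microtubules, at -0.22 ± 0.29 (0.713).

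Most genes of cell division did not pass the test, as held for all genes tested, of which 3.17% rose and 2.49% fell. Of 28 genes of mitosis and the spindle checkpoint 2 rose and none fell, with a median of 0.01. Whether this departs from the shares of all genes was not tested. Top2a (ENSMUSG00000020914, chromosome 11, 98992943 to 99024189), the topoisomerase of dividing cells, had 295.4, 252.9 and 307.7 CPM in vehicle and 389, 438.9 and 383.3 CPM in paclitaxel libraries (0.50 ± 0.12, edgeR adjusted p = 0.0244). Kif11, the spindle motor Eg5, had 0.55 ± 0.14 (0.0383). Both have AT-rich transcripts (43.36% and 41.74%), and after correction they came to 0.21 ± 0.11 and 0.16 ± 0.12 and no member passed. Mki67 (0.19 ± 0.14, edgeR adjusted p = 0.464), the checkpoint kinase gene Bub1b (0.13 ± 0.11, 0.55) and cyclin B1, Ccnb1 (0.56 ± 0.18, 0.0816) did not pass. None of 24 DNA replication genes passed. Among p53 targets and apoptosis genes 1 of 22 rose and 1 fell, near the shares of all genes tested. Cdkn1a, the cell cycle inhibitor p21, had 33.93, 37.16 and 31.53 CPM in vehicle and 23.47, 21.41 and 26.44 CPM in paclitaxel libraries, lower in all 3 (-0.52 ± 0.14, edgeR adjusted p = 0.0413). Its call was lost after correction (-0.43 ± 0.14, edgeR adjusted p = 0.128) and without vehicle 1, vehicle 2, paclitaxel 1 or paclitaxel 2. Ccng1, another p53 target with an AT-rich transcript (37.36%), rose by 0.46 ± 0.12 as counted and had -0.28 ± 0.17 after correction. The efflux pump genes for paclitaxel, Abcb1a (-0.75 ± 0.51, edgeR adjusted p = 0.411) and Abcb1b (-0.45 ± 0.22, 0.249), and the survival gene Bcl2 (0.33 ± 0.16, 0.219) did not pass.

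Splicing factors and zinc finger genes had more rises as counted than after correction. Among all genes tested 3.17% rose as counted and 0.767% after correction. Of 30 splicing factors 10 rose and 1 fell, with a median of 0.31 and a median GC content of 43.54%. Genes of the same GC content had a median of 0.22, and the correction left a median of 0.06 with 2 members higher. Hnrnpu (ENSMUSG00000039630, chromosome 1, 178321108 to 178337797), which binds nuclear RNA and chromatin, had 70.44, 91.09 and 97.04 CPM in vehicle and 159.6, 199.7 and 156.6 CPM in paclitaxel libraries (1.00 ± 0.15, edgeR adjusted p = 0.00455), and 0.55 ± 0.12 after correction (0.0375). Srsf10, with a GC content of 41.97%, lost its call (0.72 ± 0.11 as counted, 0.35 ± 0.12 after), whereas Srsf6, at 50.53%, kept its size (0.58 ± 0.10 and 0.61 ± 0.10). Of 335 genes named Zfp, most of which encode DNA-binding repressors, 50 rose and 2 fell, with a median of 0.27. As counted, genes of the same GC content had a median of 0.11. After correction 6 were higher and 1 lower, with a median of 0.12 against -0.05 (-0.046) for all genes. Zfp945 (1.18 ± 0.17) and Zfp994 (1.20 ± 0.18) rose as counted and had 0.34 ± 0.14 and 0.52 ± 0.19 after correction, short of the test. Atm, the kinase that senses DNA breaks, rose by 1.01 ± 0.14 and by 0.68 ± 0.15 after correction (edgeR adjusted p = 0.0375). Tia1, an RNA-binding protein of stress granules, rose by 0.99 ± 0.14 and 0.73 ± 0.13.

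**Figure D4:**
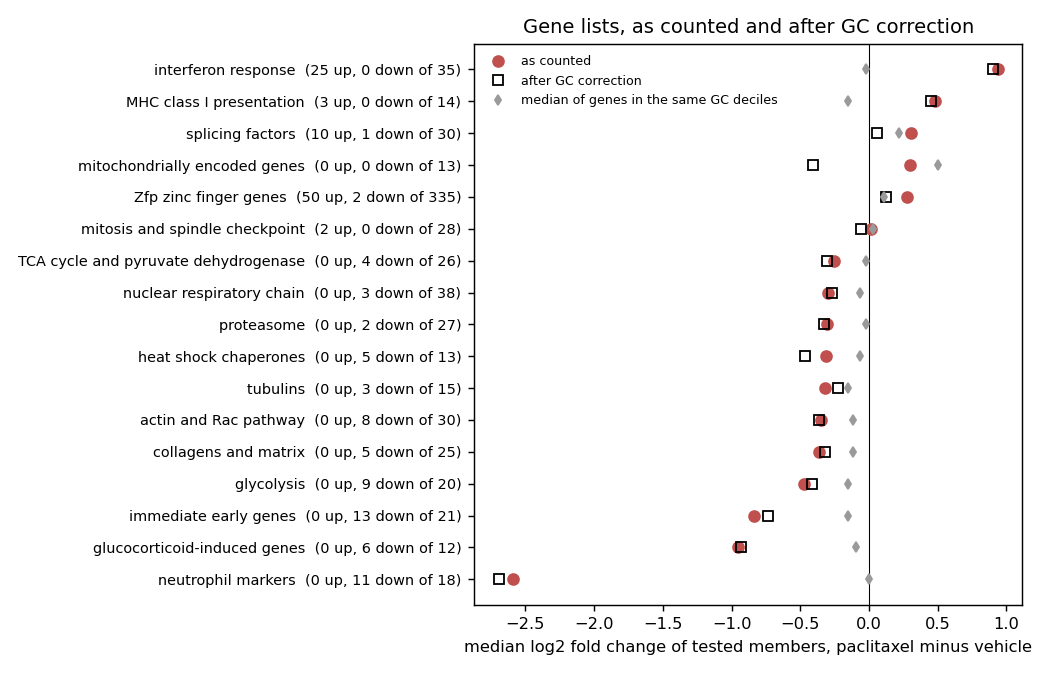
Median log2 fold change of the tested members of 17 gene lists, as counted (red points), after correction for GC content (open squares), and the median of genes in the same GC deciles (grey diamonds), with the number of members that rose or fell as counted. Interferon, immediate early and neutrophil lists stay near their place (0.94 and 0.91, -0.84 and -0.74, -2.59 and -2.69), and splicing factors move from 0.31 to 0.06.

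Genes that went against the GC line were few. In the lowest quintile 11 genes fell. Tcim, a small regulator of Wnt signals, had 105.6, 98.36 and 142 CPM in vehicle and 65.69, 64.47 and 71.91 CPM in paclitaxel libraries (-0.78 ± 0.14, edgeR adjusted p = 0.0089), and -1.06 ± 0.14 after correction. S100a8, Mmp8, a neutrophil collagenase, and Stfa2l1, a stefin, were among the others, as was Tm4sf1, a surface protein (-0.53 ± 0.13). In the highest quintile 11 genes rose, with Irf7, Miga2, a mitochondrial fusion gene (0.67 ± 0.15), Tnfrsf14, the immune receptor HVEM (0.76 ± 0.17), and Hcn3, an ion channel (1.72 ± 0.40), among the 5 smallest p-values. All 4 of these kept their call after correction, which raised the median of that quintile from -0.17 to -0.04. None of the 11 passed in all 6 fits that left out a library. Irf7 passed in 4 of these fits, and Miga2, Tnfrsf14 and Hcn3 in 3 each. After the correction, some AT-rich genes passed that had not passed as counted. Eif3e, an initiation factor subunit with a GC content of 38.44%, had 216, 174.8 and 209 CPM in vehicle and 195, 166.8 and 157.9 CPM in paclitaxel libraries, with -0.21 ± 0.12 as counted (edgeR adjusted p = 0.332) and -0.85 ± 0.15 after correction (0.0191). Ppp1r12a, which directs myosin phosphatase, did not overlap as counted and had -0.29 ± 0.10 (edgeR adjusted p = 0.0984), and -0.65 ± 0.12 after correction (0.0199). Both calls rest on the correction, and both genes were picked after their values were seen.

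Paclitaxel was also given on top of MBQ-167, and this second contrast shares no library with the first. No gene passed edgeR's test there (0% of 18252, 940 at an unadjusted p under 0.05), and DESeq2 called 1 and limma voom none. Both contrasts carry a GC gradient. Of the 578 genes that rose with paclitaxel alone, 82.4% had a positive change, against 51.3% of all genes, and of the 455 that fell, 65.9% had a negative change, against 48.7%. After the GC correction of both contrasts these shares were 68.6% of 140 and 68.9% of 235. The share over all genes was not computed after the correction, so the corrected shares have no such reference. The GC relation came back with the same sign: the fold change correlated at -0.25 with GC content, and at -0.41 in the highest tercile of expression. Across genes the 2 fold changes had a Spearman correlation of 0.22, and of 0.13 after the GC correction. The list medians differed. Interferon genes had a median of 0.07 where they had 0.94 with paclitaxel alone, immediate early genes -0.08 against -0.84, glycolysis -0.15 against -0.47 and neutrophil markers -0.65 against -2.59. These list differences were not tested as such. For single genes the interaction, which is the difference between the 2 contrasts, passed for 11 genes (0.0603% of those tested), 8 with a positive difference (0.0438%) and 3 with a negative one (0.0164%), and all 11 had also passed with paclitaxel alone. The starting level differed: Fos had 10.31, 10.18 and 12.36 CPM with MBQ-167 alone, within its range of 7.505 to 13.74 CPM with paclitaxel alone, and 17.85, 15.49 and 11.28 CPM with both drugs. With MBQ-167 alone, Gbp7 had 68.47, 74.95 and 65.02 CPM, against 26.47 to 40.66 CPM in vehicle. Slc2a1 had 174.2, 212.5 and 150 CPM, against 289.8 to 316 CPM, and S100a8 39.25, 59.43 and 64.47 CPM, against 76.38 to 373.6 CPM. These genes were picked after their values were seen. The part of the starting level in the list differences was not tested.

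**Figure D5:**
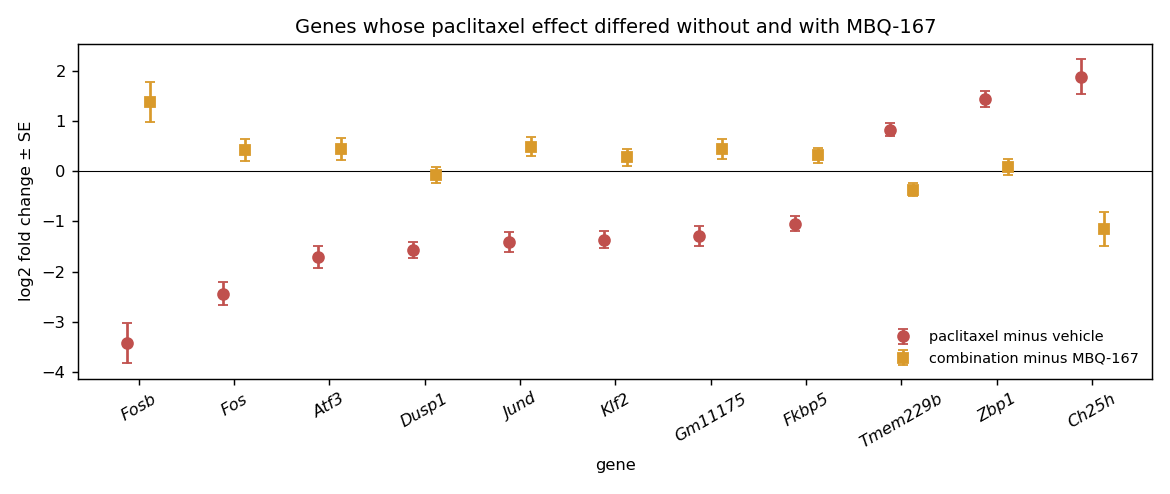
Log2 fold change with SE of the 11 genes past the interaction test, for paclitaxel minus vehicle (circles) and combination minus MBQ-167 (squares), n = 3 per group. The 8 genes on the left fell with paclitaxel alone, with values of -3.43 to -1.04, and have values from -0.08 to 1.38 on top of MBQ-167.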

How the data were processed

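RNA of 12 tumours was sequenced, 3 libraries in each of 4 groups, and 6 of them are the paclitaxel and vehicle libraries compared. The deposited values are raw whole-number counts per Ensembl gene for 46078 genes. Per the submitters' processing notes, HISAT2, HTSeq, DESeq2 and the build GRCm38 were used, and the sources used here do not state versions, strandedness or how multi-mapped reads were handled. Per the labels, the molecule is polyA RNA extracted with TRIZOL.

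Gene symbols, biotypes and GC content (median over a gene's transcripts) came from GENCODE vM21 on GRCm38, with a GC value for 18144 of 18252 tested genes. Counts were kept by filterByExpr (minimum count 10) and fitted in edgeR 4.0.16 (R 4.3.3) with TMM scaling and quasi-likelihood tests over all 12 libraries by group, which share 1 estimate of spread (biological coefficient of variation 0.214, 8 residual degrees of freedom). P-values were adjusted by Benjamini-Hochberg over all tested genes, with a threshold of 0.05. Log2 CPM used a prior count of 2. The GC correction subtracts, per library, a natural spline of GC content with 5 degrees of freedom as an offset. On simulated counts with 200 changed genes among 17754, the fit recovered 65.7% of changes of 1 and 95.7% of changes of 2 on the log2 scale, and 7.02% of its calls were false. The changed genes all had a mean over 2 CPM, and the simulated libraries had no GC slope. These shares therefore do not give the recovery or the false share of the real calls. Comparisons of single values between libraries used exact two-sided permutation tests over 20 splits.

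The comparison, its gene lists (41) and members were chosen with earlier results of these data known. Genes named are the 12 largest changes per direction and the 5 smallest p-values among genes that rose in the highest or fell in the lowest GC quintile, both among protein-coding genes past the test whose groups do not overlap and whose mean over the 6 libraries reaches 1 CPM, with the 3 smallest p-values per list and fixed genes of the drug's action. The planned rule set these conditions for list and fixed genes too, where they were not applied. Tubb3, one of these, did not pass the filter. Other genes (among them Fam208a, Fubp1, Klf2, Jund, Atm, Tia1, Igtp, Irgm1, Gbp7, Cxcl10, Ch25h, Eif3e, Ppp1r12a) were named after their values were seen. Alternatives were DESeq2 1.42.0, limma 3.58.1 with voom, other scalings and filters, covariates, corrections, a replicate block and leaving out libraries. Libraries of a group had the same count for at most 400 genes (log2 CPM correlation at most 0.977), and none was treated as a duplicate. The columns hold no sample of another series. One gene of the interferon list is counted in it and is not reported here.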

Additional observations from a re-analysis of the deposited data

Results flagged for a closer look

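The effect of paclitaxel differed without and with MBQ-167 for 11 genes, by the interaction test of edgeR with adjustment over all genes (n = 3 per group). Values are the log2 change of combination minus MBQ-167, less that of paclitaxel minus vehicle. Of the AP-1 and other immediate early genes, Fosb had a difference of 4.81 ± 0.56 (SE, adjusted p = 0.00514), Fos 2.88 ± 0.32 (0.00514), Atf3 2.17 ± 0.31 (0.0286), Jund 1.90 ± 0.28 (0.0286), Klf2 1.65 ± 0.24 (0.0286) and Dusp1 1.49 ± 0.22 (0.0286). The antisense locus Gm11175, within the coordinates of Jund, had 1.73 ± 0.28 (0.0445), and the glucocorticoid-induced Fkbp5 1.36 ± 0.21 (0.035). In the other direction were Ch25h, which encodes cholesterol 25-hydroxylase (-3.04 ± 0.48, 0.035), the interferon gene Zbp1 (-1.37 ± 0.22, 0.0453) and Tmem229b (-1.19 ± 0.18, 0.0324). Ch25h had 1.512, 3.637 and 1.351 CPM in vehicle and 6.121, 7.742 and 10.18 CPM with paclitaxel alone, a log2 change of 1.89. With MBQ-167 alone it had 6.517, 9.315 and 8.523 CPM and with both drugs 3.253, 3.221 and 4.426 CPM, a change of -1.15 ± 0.33. Tmem229b had 15.57, 16.29 and 13.1 CPM in vehicle and 26.51, 26.86 and 26.32 CPM with paclitaxel, and 28.93, 25.35 and 25.2 CPM with MBQ-167 alone, where its change on adding paclitaxel was -0.37 ± 0.13. Dusp1 had 27.64, 31.56 and 25.99 CPM with MBQ-167 alone and 29.79, 21.96 and 27.49 CPM with paclitaxel alone. Zbp1 had 26.79, 23.83 and 22.71 CPM with MBQ-167 alone, below its 33.06, 40.84 and 32.4 CPM with paclitaxel alone. Its vehicle values were 13.76, 12.33 and 12.69 CPM. The part of the level with MBQ-167 alone in these differences was not tested. None of the 11 genes passed edgeR's test in the contrast on top of MBQ-167 alone (smallest adjusted p 0.879). Groups of 3 libraries were too small for a test of single outlying libraries.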

How the results depend on the processing

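The correlation of the fold change with GC content was -0.25 with no filter on low counts and -0.34 with a term for neutrophil markers, 0.0031 to 0.0053 under the GC corrections, by their construction, and -0.020 with the GC slope term. Leaving out single libraries gave a GC correlation of -0.40 to -0.35, and a difference between the libraries' own correlations of -0.53 to -0.44. With GC content of the coding sequence it was -0.32. Counts of genes moved more. Genes higher and lower numbered 936 and 836 in DESeq2, 777 and 777 with no filter, 170 and 81 in a fit of the 6 libraries only, 137 and 91 with a term for neutrophil markers, 140 and 235 after the GC correction, 141 and 248 after correction for GC and length, 0 and 0 with the library's GC slope as a covariate, and 56 and 50 without vehicle 1 and paclitaxel 1 together, which was chosen after seeing the data. Upper quartile scaling gave 749 and 363, so that 67.4% of the calls were rises. Leaving out single libraries gave 169 to 648 higher and 61 to 491 lower. Replicate numbers were not taken as pairs, since same-numbered vehicle and paclitaxel libraries had correlations of -0.12, 0.04 and -0.04. Those of vehicle and combination libraries were 0.11, 0.22 and 0.19, and all same-numbered pairs ranged from -0.17 to 0.25. The replicate block gave 612 and 480, and the replicate block with the GC correction 148 and 232. On top of MBQ-167, DESeq2 called 1 gene, an alternative added after seeing the data. The neutrophil level and the GC slope do not overlap between vehicle and paclitaxel libraries, so fits with these covariates cannot separate them from the drug. Signs turned for few named genes, none past the test after turning. With the neutrophil covariate, log2 changes were 0.63 for Abca13, 1.14 for Mmp8, 0.05 for Retnlg (0.051), 0.04 (0.037) for Stmn1, 0.26 for Abcb1b, 0.16 for Asprv1, -0.11 for Bub1b, 1.69 for Abcb1a, 0.23 for Tubb2b and 0.25 for Ifitm6. With the GC slope covariate they were 0.02 (0.023) for Cs, -0.08 (-0.077) for Kif11, 0.13 for Atp5b, 0.02 (0.016) for Tm4sf1, -0.35 for Mki67 and -0.10 for mt-Nd5. Ccng1 had -0.28, -0.29 and -0.26 after the GC correction, with length added and with the block added, and mt-Nd5 -0.23, -0.22 and -0.22. Abcb1a ranged from -1.12 to 0.43 when single libraries were left out. The cause of these moves was not tested. At 3 libraries a side, changes of 1 on the log2 scale were recovered in 65.7% of simulated cases, so smaller changes are often missed. The simulation changed no gene of low level and held no GC slope.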

Other observations

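Beyond the genes named above, several of the 12 largest rises were in genes of low level. Klhdc7a had 0.529, 0.6325 and 0.3376 CPM in vehicle and 1.735, 2.133 and 5.461 CPM in paclitaxel libraries (2.63 ± 0.62, edgeR adjusted p = 0.0273), with paclitaxel 3 highest. Apol6, an apolipoprotein L gene, had 1.36, 2.846 and 1.215 CPM in vehicle and 6.844, 14.3 and 8.651 CPM in paclitaxel libraries (2.46 ± 0.51). Rbm12b1 (2.51 ± 0.52), Gm12185 (2.43 ± 0.49), Amelx (2.17 ± 0.47), Zfp934 (2.13 ± 0.43), Cmc4 (2.08 ± 0.47) and Zfp979 (2.02 ± 0.36) were also among the 12, and of all 8 the AT-rich Zfp934 and Zfp979 lost the call after the GC correction. The coordinates of Gm12185 overlap those of Tgtp1, and those of Cmc4 overlap those of Mtcp1, each on the same strand, so reads may be shared. Amelx, which encodes the enamel protein amelogenin, stayed under 3 CPM in every library. Among the 12 largest falls, the listed neutrophil markers Retnlg and Mmp8 and the unlisted Ifitm6, Abca13 and Asprv1 had their highest value in vehicle 3, with log2 changes of -3.80 to -2.78. Rnase2a, an eosinophil ribonuclease gene, differed from these: it had 5.366, 10.2 and 1.823 CPM in vehicle and 0.5302, 0.316 and 1.657 CPM in paclitaxel libraries, with vehicle 3 the lowest vehicle library.

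Solute carriers, which move small molecules across membranes, had 5 higher and 7 lower of 217 tested (median -0.07), shares near the 3.17% and 2.49% of all genes. Slc16a4, of the monocarboxylate transporter family, had 4.308, 4.665 and 8.036 CPM in vehicle and 17.01, 20.78 and 15.34 CPM in paclitaxel libraries (1.63 ± 0.29, edgeR adjusted p = 0.00841) and stayed higher after correction (1.21 ± 0.27). Sphk1, which makes sphingosine 1-phosphate, fell from 105.8, 99.55 and 94.67 CPM to 63.72, 54.51 and 58.53 CPM. Of 80 cytosolic ribosomal protein genes 5 fell and none rose (median -0.30, 2 lower after correction), among them Rpl8 (-0.63 ± 0.13), Rpl6 (-0.70 ± 0.15) and Rps3a1 (-0.58 ± 0.14), and DESeq2 called 16. Of 27 proteasome genes 2 fell, Psmc1 (-0.47 ± 0.11) and Psmd4 (-0.49 ± 0.13), neither of which passed after correction (edgeR adjusted p = 0.0582 and 0.131), where 4 others were lower, among them Psma3 (-0.80 ± 0.15). Of 22 cholesterol synthesis genes 1 fell, Fdft1 (-0.46 ± 0.13), and 20 had a negative change. Of 33 kinesins 2 rose, Kif20b (0.77 ± 0.16) and Kif11, and neither after correction. Gas5, a host of small nucleolar RNAs with a GC content of 42.32%, rose by 0.56 ± 0.15 and had 0.20 ± 0.14 after correction. Of 55 replication-dependent histone genes none passed edgeR's test (median -0.23), 1 was lower after correction, and polyA selection captures these RNAs poorly.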
